A study of Arabidopsis thaliana with 12 samples.

Results

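The core cell cycle and DNA replication genes of Arabidopsis thaliana were followed as a set of 35 genes across all 12 libraries of an RNA sequencing study of the receptor kinase CERK1. The members were taken by gene identifier and fall into 3 classes. The mitotic class holds 17 genes: the 8 B-type cyclins of the CYCB1 and CYCB2 groups, the A-type cyclins CYCA1;1, CYCA2;1, CYCA2;3 and CYCA2;4, the kinases CDKB1;1, CDKB1;2, CDKB2;1 and CDKB2;2, and the cytokinesis syntaxin KNOLLE. The G1 class holds 8 genes: the D-type cyclins CYCD1;1, CYCD2;1, CYCD3;1, CYCD3;2, CYCD3;3 and CYCD4;1, the A-type cyclin CYCA3;1 and the kinase CDKA;1. The replication class holds 10 genes: MCM2 to MCM7, PCNA1, PCNA2, CDT1A and CDC6. The count table of the flg22 experiment lists 21981 genes and has a row for 34 members, without CYCA2;4, whereas the table of the transgenic lines lists 27612 genes and all 35.

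Whole seedlings were sampled at 10 days. In the flg22 experiment, wild type (WT) and the cerk1 mutant received sterile water (mock) or 100 nM flg22, a peptide of bacterial flagellin that triggers pattern-triggered immunity, and each of the 4 combinations had 1 library. The genotype field of the cerk1 library with flg22 reads cerk2-/-, and the library was taken as cerk1 from its title. In the second experiment the plants were untreated and all were cerk1 plants with a transgene pCERK1::CERK1-FLAG, driven by the CERK1 promoter, carrying CERK1 as wild type or as the variants 3A, 3D or 3E. These lines are called CERK1_WT, CERK1_3A, CERK1_3D and CERK1_3E, and each had 2 libraries. The labels do not give the length of the flg22 treatment, the changed residues, the number of transformants behind a line or whether the libraries stand for independently grown plants. All p-values here therefore rest on how far these libraries differ from each other, and that difference may be technical.

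In plants, D-type cyclins bound to CDKA drive entry into the cell cycle by phosphorylating the retinoblastoma-related protein, which releases E2F factors that act on replication genes. CDC6 and CDT1 then load the MCM helicase onto origins, and PCNA is the sliding clamp that holds DNA polymerase on its template. Late in the cycle, A- and B-type cyclins with the plant-specific CDKB kinases carry the cell into mitosis, and many of their genes are regulated by MYB3R factors through the mitosis-specific activator (MSA) element. In a seedling, cell division is concentrated in the shoot and root meristems and in young leaves. In bulk RNA, fewer dividing cells and less of a transcript per dividing cell cannot be told apart.

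The stretch upstream of the annotated gene start is shown for a pair of mitotic cyclins and a pair of helicase subunits whose transcript levels fell with flg22 as described below, because the classes differ in the short motifs held there. The sequences and positions are those of RefSeq TAIR10.1, each is the 250 bases before the gene start, read 5′ to 3′ toward the gene, and lower case carries no meaning. Capitals mark the MSA core AACGG, or its reverse complement CCGTT, in the cyclin genes, and an E2F motif in the MCM genes.
CYCB1;1 (chr4:17624309-17624558, minus strand): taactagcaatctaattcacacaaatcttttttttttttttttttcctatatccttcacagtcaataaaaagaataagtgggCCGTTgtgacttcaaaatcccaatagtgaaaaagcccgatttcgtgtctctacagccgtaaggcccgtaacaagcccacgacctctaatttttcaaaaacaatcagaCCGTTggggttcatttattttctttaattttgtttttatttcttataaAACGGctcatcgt
CYCB1;2 (chr5:1861704-1861953, minus strand): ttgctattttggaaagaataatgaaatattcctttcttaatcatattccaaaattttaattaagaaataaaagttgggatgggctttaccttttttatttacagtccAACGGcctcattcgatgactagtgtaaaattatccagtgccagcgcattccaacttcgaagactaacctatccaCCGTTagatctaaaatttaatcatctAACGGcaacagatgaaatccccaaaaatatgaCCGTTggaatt
MCM2 (chr1:16969964-16970213, plus strand): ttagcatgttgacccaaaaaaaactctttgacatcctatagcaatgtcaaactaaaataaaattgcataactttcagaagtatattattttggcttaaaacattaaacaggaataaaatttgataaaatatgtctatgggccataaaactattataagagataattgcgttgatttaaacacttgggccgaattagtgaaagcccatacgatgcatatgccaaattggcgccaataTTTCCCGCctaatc
MCM4 (chr2:7130730-7130979, minus strand): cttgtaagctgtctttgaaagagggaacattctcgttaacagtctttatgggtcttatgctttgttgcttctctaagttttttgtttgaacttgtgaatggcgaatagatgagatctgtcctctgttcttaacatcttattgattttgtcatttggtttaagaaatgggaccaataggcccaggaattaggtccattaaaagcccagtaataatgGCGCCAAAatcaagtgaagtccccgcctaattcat

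The window searched ran from 250 bases before to 50 bases after the start, on both strands, for AACGG and for the E2F motifs TTTCCCGC, TTTGGCGC, TTTCGCGC and TTTGCCGC, and no E2F motif contains the MSA core. An MSA core was present in 11 of 17 mitotic genes, in 2 of 8 G1 genes and in 3 of 10 replication genes, against 24.7% of the windows of 27443 protein-coding genes. The mitotic genes also held several copies more often, with 2 or more in 10 of 17 windows against 4.89% of all windows, and CYCB1;2 had 5. An E2F motif was present in 5 of 10 replication genes, namely MCM2, MCM3, MCM4, MCM5 and MCM6, in 1 of 8 G1 genes (CYCD3;3) and in 0 of 17 mitotic genes, against 1.76% of all windows. A match is a description of the letters in the window and was not taken as a bound site.

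**Figure D1:**
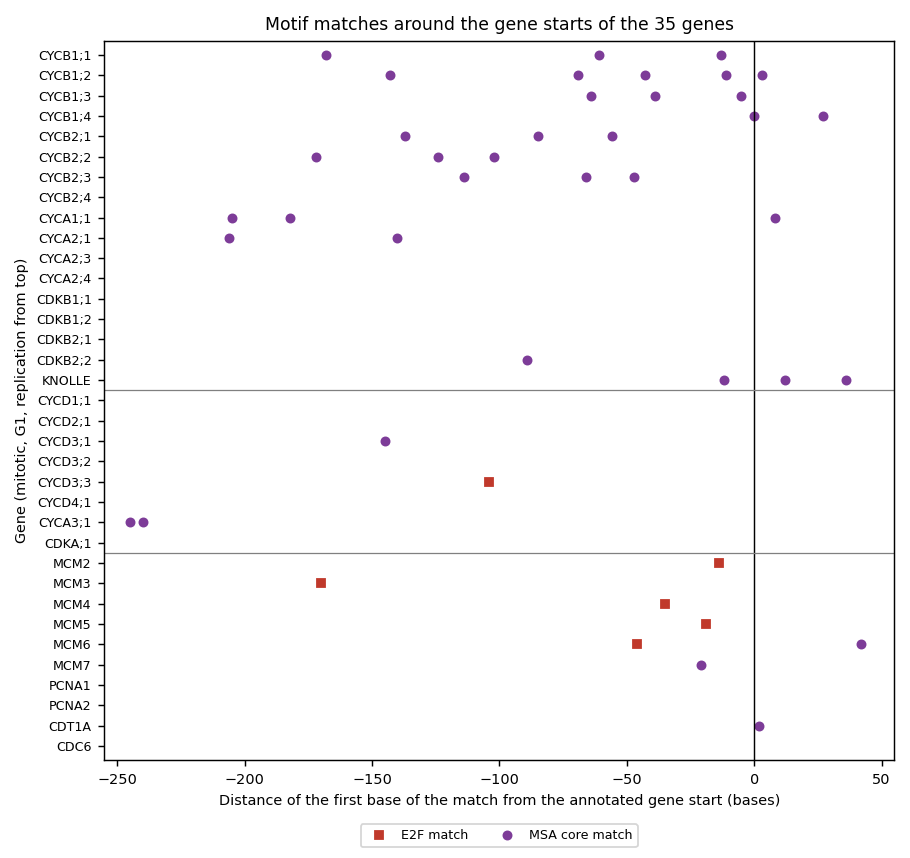
Motif matches in the window of each of the 35 genes, with the distance of the first base of the match from the annotated gene start in bases on the horizontal axis and 1 gene per row. Circles are MSA core matches and squares are E2F matches. Circles crowd the rows of the mitotic cyclins, and the squares lie in the MCM2 to MCM6 rows and in that of CYCD3;3.

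Library totals ran from 18159354 to 22663236 counts in the flg22 experiment and from 36013439 to 41288819 counts in the lines. Levels are CPM, the counts of a gene relative to the library total, after TMM scaling within each experiment. They are not compared between experiments, whose tables state the same length for 18 of the 34 members they share. All 34 members of the flg22 table passed the filter of 1 CPM in at least 1 library, as did 18872 genes in all. All 35 members passed the filter in the lines, where 21274 genes were tested. The transcript of CERK1 itself stood at 24.9 CPM in WT mock and 9.70 CPM in cerk1 mock, and at 273 and 119 CPM with flg22, so the mutant libraries still held CERK1 reads.

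After flg22 the members were lower as a group in both genotypes, most of all the replication genes. Together, the transcripts of the 34 members took up 686 CPM in WT mock and 472 CPM in WT with flg22, and 773 and 505 CPM in the corresponding cerk1 libraries. The replication class went from 282 to 168 CPM in WT and from 292 to 163 CPM in cerk1. The mitotic class went from 240 to 173 CPM in WT and from 281 to 202 CPM in cerk1, and the G1 class from 164 to 130 CPM and from 200 to 141 CPM. For each class, both flg22 libraries lay below both mock libraries.

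Of the 34 members, 31 had a lower level with flg22 in WT, where 51.9% of all genes did, and 3 had a higher one, where 48.1% did. The same numbers were lower and higher in cerk1, where 50.5% and 49.4% of all genes were. On the scale of CPM + 1, 17 members were at least 1.5-fold lower in WT against 16.6% of all genes, and 15 were in cerk1 against 16.5%. The changes were moderate in size. At least 2-fold lower were 2 members in WT (CYCD1;1 and MCM4) against 5.79% of all genes, and 3 in cerk1 (CYCD1;1, CYCA1;1 and PCNA1) against 5.38%. In both genotypes 0 members were at least 2-fold higher, against 13.2% of all genes in WT and 15.2% in cerk1. The median log2 ratio of the members was -0.57 in WT and -0.54 in cerk1, against -0.03 and -0.01 for all genes.

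With 1 library per combination, neither genotype alone allows a test. The genotypes were therefore also fitted together in edgeR's quasi-likelihood model with genotype and treatment as terms over the 4 libraries, a test chosen after the values had been seen, in which the disagreement between the genotypes, at 1 residual degree of freedom, serves as the error. In this fit 17 of 34 members fell and 0 rose at an adjusted p under 0.05, against 16.1% of all genes that fell and 21.2% that rose. By class, 9 of 10 replication genes fell, 3 of 8 G1 genes and 5 of 16 mitotic genes. DESeq2 called 10 members, all among the 17, and these passed under each of the 6 settings tried: CYCD1;1, CYCD3;2, CYCB1;2, CYCA1;1, PCNA1 and every MCM gene but MCM6. Both flg22 libraries lay below both mock libraries for 28 of 34 members, against 32.4% of all genes, and above them for 1 (CDKB2;2), against 31.9%.

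**Figure D2:**
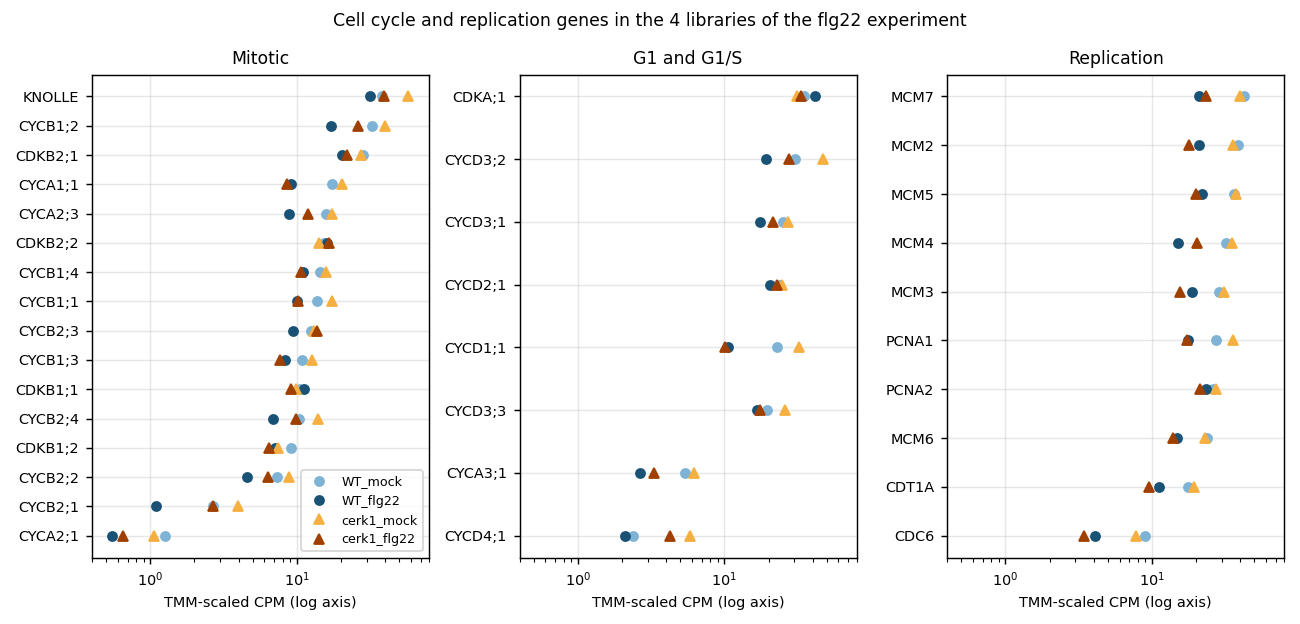
TMM-scaled CPM of the 34 members in the 4 libraries of the flg22 experiment, on a log axis, with 1 gene per row ordered by the WT mock level within its class. Circles are WT and triangles cerk1, with mock in light and flg22 in dark colours. In the replication panel all dark symbols lie to the left of the light ones, for PCNA2 by the smallest margin, while CDKA;1 and CDKB2;2 do not show that order.

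Of the meristem markers 1 fell, CLV1, of 7 tested, against 16.1% of all genes. Their summed level over 9 genes went from 120 to 82.0 CPM in WT and from 118 to 81.0 CPM in cerk1, and 6 of the 7 that passed the filter were lower in each genotype. CLV1, a receptor of the shoot stem cell niche and the largest contributor to the sum, fell from 80.7 to 52.1 CPM in WT and from 68.7 to 49.4 CPM in cerk1 (log2 change over both genotypes -0.55 ± 0.14 SE, edgeR adjusted p = 0.0166). STM, which maintains the shoot meristem, and WOX5 of the root stem cell niche had log2 changes of -0.10 ± 0.37 SE and -0.17 ± 0.61 SE (edgeR adjusted p = 0.864 and 0.857). BP and ANT had -0.52 ± 0.23 SE and -0.49 ± 0.17 SE (edgeR adjusted p = 0.123 and 0.0542). PLT1 and PLT2 had -1.48 ± 0.62 SE and -1.15 ± 0.84 SE (edgeR adjusted p = 0.103 and 0.330). The median log2 change of the 7 was -0.52, against -0.65 for the members and -0.03 for all genes. The defining stem cell genes WUS and CLV3 were at 0 to 0.101 CPM in the 4 libraries. The summed level of 5 green tissue genes was 32103 and 29993 CPM in WT mock and flg22, and 34040 and 28837 CPM in cerk1. Root markers as a sum moved in opposite directions in the genotypes. Their summed level over 7 genes went from 113 to 95.5 CPM in WT, where 6 were lower with flg22. In cerk1 it went from 61.3 to 91.7 CPM, and 6 were higher. In the fit over both genotypes 1 of the 7 fell, SCR, against 16.1% of all genes (log2 change -0.67 ± 0.14 SE, edgeR adjusted p = 0.00919). RHD2 was the 1 that rose, against 21.2% (2.24 ± 0.49 SE, edgeR adjusted p = 0.00986). The parts of meristem size and of tissue makeup in the lower levels of the members were not tested.

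Among the G1 genes, CYCD1;1 (AT1G70210), a D-type cyclin of cell cycle entry, showed the largest difference. It stood at 22.8 CPM in WT mock and 10.5 CPM in WT flg22, and at 32.3 CPM in cerk1 mock and 10.12 CPM in cerk1 flg22. Both flg22 libraries were close to each other and far below both mock libraries. The count ratio was 0.461 in WT (95% exact binomial interval 0.389 to 0.544) and 0.314 in cerk1 (0.266 to 0.368), and over both genotypes the log2 change was -1.40 ± 0.19 SE (edgeR adjusted p = 0.00098). These intervals, like all intervals on ratios given here, cover counting error only.

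CYCA3;1 (AT5G43080), an A-type cyclin expressed around the G1 to S transition, stood at 5.34 and 2.65 CPM in WT mock and flg22, and at 6.18 and 3.32 CPM in cerk1. The flg22 libraries were again the lower pair, and the fall over both genotypes was -0.95 ± 0.29 SE on the log2 scale (adjusted p = 0.0387 in edgeR, 0.228 in DESeq2). CYCD3;2 (AT5G67260), one of the CYCD3 cyclins that promote division in young leaves, stood at 30.2 and 19.2 CPM in WT and at 46.7 and 27.5 CPM in cerk1. It fell by 0.71 ± 0.13 SE on the log2 scale (edgeR adjusted p = 0.00508).

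The other D-type cyclins were less far apart. CYCD3;1 and CYCD3;3 had count ratios of 0.700 and 0.848 in WT and of 0.781 and 0.680 in cerk1, all with intervals below 1, but did not pass the test (edgeR adjusted p = 0.0525 and 0.0929). CYCD2;1 had count ratios of 0.856 in WT and 0.934 in cerk1. CDKA;1 (AT3G48750), the constitutively expressed kinase partner of these cyclins, did not share the direction. It stood at 34.7 and 41.2 CPM in WT, a count ratio of 1.19 (interval 1.07 to 1.31), and at 31.1 and 33.5 CPM in cerk1, a count ratio of 1.08 (interval 0.964 to 1.20). It was the only member whose interval lay above 1 in either genotype, and only in WT, and it did not pass the test over both genotypes (adjusted p = 0.328).

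Of the 16 mitotic genes measured, 4 cyclins and KNOLLE fell. CYCB1;2 (AT5G06150), a cyclin of the G2 to M transition, stood at 32.5 and 17.03 CPM in WT mock and flg22, and at 39.9 and 26.3 CPM in cerk1. Both flg22 libraries lay below both mock libraries, and the log2 change over both genotypes was -0.76 ± 0.15 SE (edgeR adjusted p = 0.00595). CYCA1;1 (AT1G44110), a cyclin also linked to mitotic entry, stood at 17.3 and 9.11 CPM in WT and at 20.5 and 8.51 CPM in cerk1. Its fall was the largest of the mitotic genes that passed, at -1.09 ± 0.18 SE on the log2 scale (adjusted p = 0.00279).

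CYCB1;1 (AT4G37490), the cyclin most often used as a marker of cells in G2 and M, stood at 13.7 and 10.0 CPM in WT and at 17.3 and 10.12 CPM in cerk1. The log2 change was -0.61 ± 0.18 SE (adjusted p = 0.0360 in edgeR, 0.227 in DESeq2). CYCA2;3 fell by 0.69 ± 0.18 SE (adjusted p = 0.0204 in edgeR, 0.141 in DESeq2). KNOLLE (AT1G08560), the syntaxin that fuses vesicles at the cell plate, stood at 38.4 and 31.6 CPM in WT and at 57.7 and 39.4 CPM in cerk1. Its level in cerk1 with flg22 thus lay just above that in WT mock. Its log2 change of -0.42 ± 0.14 SE was at the edge of the threshold (adjusted p = 0.0491) and passed under 2 of the 6 settings.

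CYCB2;1 (AT2G17620) was weakly expressed, at 2.67 and 1.102 CPM in WT and 2.67 CPM in cerk1 flg22 against 3.97 CPM in cerk1 mock. Its WT flg22 library held 22 counts and stood alone, since the level in cerk1 with flg22 equalled that of WT mock. The count ratio was 0.412 in WT (interval 0.239 to 0.690) and 0.672 in cerk1 (0.465 to 0.964), and the gene did not pass the test over both genotypes (adjusted p = 0.132). The remaining B-type cyclins had count ratios of 0.619 to 0.767 in WT and of 0.607 to 1.05 in cerk1, and CYCB2;3 was the one at 1.05.

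Of the 4 CDKB kinases, which act with the mitotic cyclins, 0 passed the test over both genotypes. CDKB2;1 had count ratios of 0.728 in WT and 0.803 in cerk1, with intervals below 1, and did not pass the test (adjusted p = 0.0705). CDKB2;2 had count ratios of 1.06 and 1.17, with intervals that include 1. The related pair CDKB1;1 (AT3G54180) and CDKB1;2 (AT2G38620) can share reads, so the split between them is uncertain. CDKB1;1 stood at 10.6 and 11.2 CPM in WT and at 9.80 and 9.06 CPM in cerk1. CDKB1;2 stood at 9.12 and 7.11 CPM in WT and at 7.39 and 6.44 CPM in cerk1. Neither of the pair passed the test over both genotypes (adjusted p = 0.961 and 0.380).

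Of the 10 replication genes, 9 fell. The 6 MCM genes, which encode the subunits of the replicative helicase, had count ratios of 0.468 to 0.654 in WT and of 0.499 to 0.599 in cerk1, and all 6 passed the edgeR test, with log2 changes of -0.94 to -0.71. MCM4 (AT2G16440) stood at 32.2 and 15.1 CPM in WT mock and flg22, and at 35.3 and 20.3 CPM in cerk1. Both flg22 libraries lay far below both mock libraries, and its log2 change was -0.94 ± 0.15 SE (adjusted p = 0.00232). MCM2 stood at 38.5 and 20.9 CPM in WT and at 35.8 and 17.9 CPM in cerk1, a log2 change of -0.94 ± 0.14 SE (adjusted p = 0.00147).

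CDC6 (AT2G29680), which loads the helicase with CDT1, had the lowest ratios of the class in both genotypes. It stood at 9.02 and 4.06 CPM in WT and at 7.79 and 3.42 CPM in cerk1, and its log2 change was -1.17 ± 0.25 SE (adjusted p = 0.00933 in edgeR, 0.0571 in DESeq2). CDT1A had count ratios of 0.635 in WT and 0.487 in cerk1 and a log2 change of -0.84 ± 0.18 SE (adjusted p = 0.00914 in edgeR, 0.0517 in DESeq2).

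PCNA1 (AT1G07370) and PCNA2 (AT2G29570) encode nearly identical clamps, and reads that match both could be assigned to either. PCNA1 stood at 27.2 and 17.7 CPM in WT and at 35.4 and 17.2 CPM in cerk1. PCNA2 stood at 25.9 and 23.2 CPM in WT and at 27.1 and 21.4 CPM in cerk1. PCNA1 fell, with a log2 change of -0.83 ± 0.16 SE (adjusted p = 0.00570), while PCNA2, the only replication gene that did not pass, had -0.25 ± 0.14 SE (adjusted p = 0.218). The difference between the pair was not tested.

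**Figure D3:**
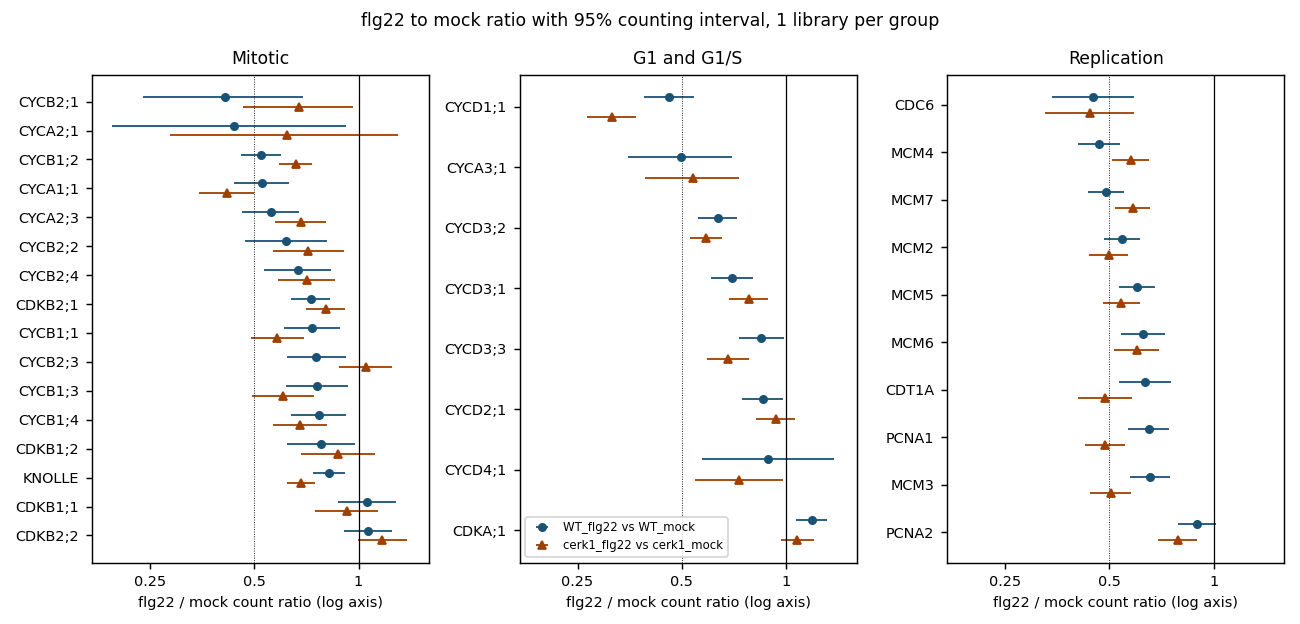
Ratio of the flg22 to the mock count of each member after TMM scaling, on a log axis, with bars for the 95% exact binomial interval, in WT (circles) and cerk1 (triangles), 1 library per group. The vertical lines mark ratios of 1 and 0.5. In the replication panel all symbols but those of PCNA2 lie between 0.439 and 0.654.

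The ratios are given here by the motif content of the windows. Among mitotic genes the median count ratio in WT was 0.733 for the 11 with an MSA core and 0.728 for the 5 without, and in cerk1 it was 0.672 and 0.803. Among replication genes the median in WT was 0.602 for the 5 with an E2F motif and 0.635 for the 5 without, and in cerk1 it was 0.541 and 0.487. No test was made of these medians.

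The order of levels within a library is given per kilobase of the stated gene length. In WT mock, KNOLLE was highest at 32.2 CPM per kilobase, followed by PCNA1 at 26.5 and CDKA;1 at 24.5. The lowest were CYCA2;1 at 0.737, CYCB2;1 at 1.66 and CYCD4;1 at 1.79 CPM per kilobase. With flg22 CDKA;1 was the highest in WT, at 29.1 CPM per kilobase, and KNOLLE followed at 26.5. In cerk1 with flg22 KNOLLE remained the highest at 33.1 CPM per kilobase. Without replicates the spread of neighbouring levels is unknown.

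**Figure D4:**
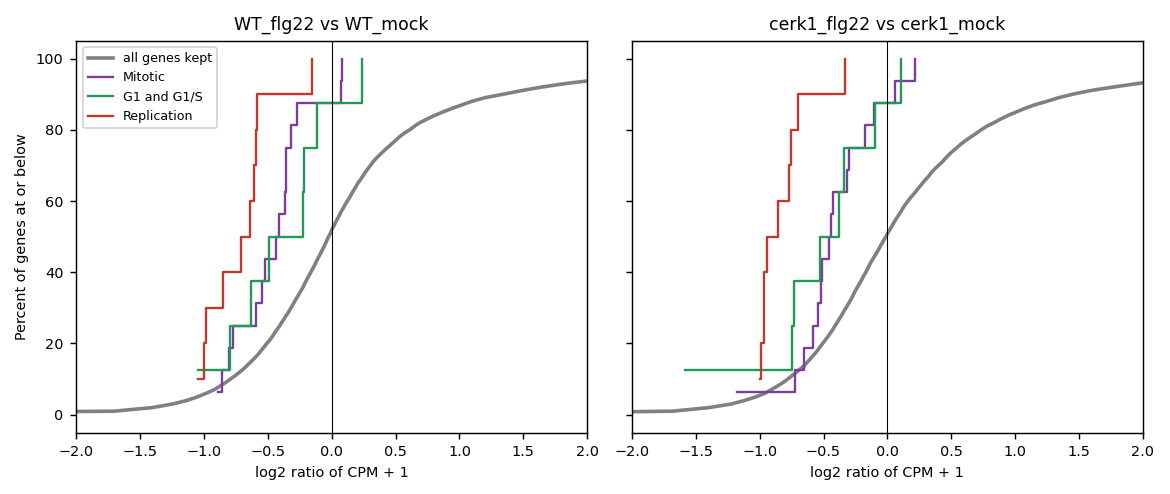
Percent of genes at or below each log2 ratio of flg22 to mock (CPM + 1), in WT (left) and cerk1 (right), for the 18872 genes kept and for each class. The replication class lies farthest to the left, with medians of -0.67 in WT and -0.90 in cerk1, against -0.43 and -0.45 for the mitotic class, -0.36 and -0.45 for the G1 class and -0.03 and -0.01 for all genes.

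The members' ratios were of like size in both genotypes, although the WT and cerk1 ratios share no library. The counting interval lay below 1 in both genotypes for 25 of 34 members, in WT alone for 4, in cerk1 alone for 2 and in neither for 3. In 0 members the intervals lay on opposite sides of 1. Across the 34 genes, which are not independent replicates, the log2 ratios had a Pearson's r of 0.76 and a Spearman's rho of 0.75, against 0.90 and 0.77 across all 18872 genes. Within the mitotic, G1 and replication classes r was 0.65, 0.89 and 0.52, and rho was 0.44, 0.86 and 0.006. The order of the replication genes was thus not shared between the genotypes. The median of the log2 ratio in cerk1 minus that in WT was -0.09, with a range of -0.53 to 0.43. CYCD1;1 marks the lower end and CYCB2;3 the upper end, and with 1 library per combination these differences could not be tested.

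Between the mock libraries, the members tended to be higher in cerk1 than in WT. Of 34 members, 24 were higher, where 50.3% of all genes were, and 10 were lower, where 49.3% were. The median log2 ratio was 0.13, against 0.004 for all genes. The counting interval lay above 1 for 11 members and below 1 for 1. At least 2-fold higher on the CPM + 1 scale was 1 member, CYCD4;1, against 0.302% of all genes, and 0 members were at least 2-fold lower, against 4.01%.

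CYCD4;1 (AT5G65420), a weakly expressed D-type cyclin, stood at 2.37 CPM in WT mock and 5.78 CPM in cerk1 mock, from 47 and 115 counts, and at 2.103 and 4.23 CPM in the flg22 libraries of WT and cerk1. Both cerk1 libraries were above both WT libraries, with a count ratio of 2.44 between the mock libraries (interval 1.72 to 3.502) and of 2.01 between the flg22 libraries (1.37 to 2.99). CYCD3;2, KNOLLE and CYCB2;1 had count ratios of 1.54, 1.51 and 1.49 between the mock libraries, and PCNA1 had 1.304. CDC6 had 0.863, with an interval of 0.692 to 1.08. With 1 library each, these are differences between the libraries and not tested differences between the genotypes.

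The mock libraries also differed in tissue markers. The summed level of 7 root markers was 113 CPM in WT mock and 61.3 CPM in cerk1 mock, and all 7 were lower in cerk1 mock, 5 of them at least 2-fold, so the markers lay opposite to the members. The meristem markers summed to 120 and 118 CPM. The part of these differences in the member ratios was not tested. Between the flg22 libraries the median log2 ratio of cerk1 to WT was 0.05, and 15 of 34 members were lower in cerk1, where 50.6% of all genes were. At least 2-fold apart were 0 members, against 0.97% of all genes lower and 0.641% higher in cerk1. At least 1.5-fold higher in cerk1 were 3 members, CYCB2;1, CYCD4;1 and CYCB1;2, against 3.49% of all genes.

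Other genes of the cell cycle pathway, 76 in 7 lists, were examined in the same way. Of 16 further replication genes, 15 were lower with flg22 in each genotype, against 51.9% of all genes in WT and 50.5% in cerk1. In the test over both genotypes 9 fell, against 16.1% of all genes. TSO2, a small subunit of ribonucleotide reductase, stood at 99.3 and 44.5 CPM in WT mock and flg22 and at 103 and 48.8 CPM in cerk1 (log2 change -1.12 ± 0.14 SE, edgeR adjusted p = 0.000632). FAS1, a subunit of the chromatin assembly factor that acts behind the fork, stood at 20.8 and 10.2 CPM and at 23.2 and 12.5 CPM (adjusted p = 0.00306). The others that fell were RNR1, the large subunit of ribonucleotide reductase, the polymerase subunit gene ICU2, the origin and licensing genes ORC1B and CDT1B, FAS2, ETG1 and MCM10, with log2 changes of -1.01 to -0.62. RNR1 stood at 106 and 65.3 CPM in WT and at 105 and 60.0 CPM in cerk1. Of 14 further genes of mitosis and cytokinesis, 3 fell, not far from the share of 16.1% of all genes. They were MAP65-3 of the phragmoplast, TPX2 of the spindle and the cytokinetic kinesin HIK (edgeR adjusted p = 0.00721, 0.0118 and 0.0463).

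Among upstream regulators, genes with opposite roles in the cycle moved. Of 12 measured CDK inhibitors and WEE1, 4 fell and 0 rose, against 16.1% of all genes that fell and 21.2% that rose. KRP1, an inhibitor of CDKA complexes, stood at 10.7 and 2.20 CPM in WT and at 16.3 and 2.67 CPM in cerk1, a log2 change of -2.45 ± 0.24 SE (edgeR adjusted p = 0.000209). SMR1, another CDK inhibitor, stood at 21.6 and 7.46 CPM in WT and at 26.6 and 7.05 CPM in cerk1 (adjusted p = 0.000286). The flg22 levels of both inhibitors were far below their mock levels in both genotypes. KRP2 and the inhibitory kinase WEE1 also fell (adjusted p = 0.0359 and 0.0398).

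Of the 4 measured MYB3R genes, MYB3R3 and MYB3R5, known as repressors of mitotic genes, rose, against 21.2% of all genes. MYB3R5 stood at 4.29 and 23.7 CPM in WT and at 2.86 and 16.4 CPM in cerk1, a log2 change of 2.49 ± 0.20 SE (edgeR adjusted p = 6.04e-05). MYB3R3 stood at 8.87 and 19.9 CPM and at 7.59 and 21.2 CPM (log2 change 1.32 ± 0.18 SE, adjusted p = 0.00107). MYB3R4, known as an activator, and MYB3R1 did not pass (adjusted p = 0.365 and 0.169). Of 9 measured RBR1, E2F and DP genes, 1 fell and 1 rose, against 16.1% of all genes that fell and 21.2% that rose. RBR1, the retinoblastoma-related protein, fell from 51.8 to 38.5 CPM in WT and from 44.5 to 28.7 CPM in cerk1 (edgeR adjusted p = 0.0182). E2FB rose from 4.59 to 8.46 CPM in WT and from 4.72 to 8.56 CPM in cerk1 (edgeR adjusted p = 0.0257).

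Of 7 activators and inhibitors of the anaphase-promoting complex, the activators CDC20.1 and CDC20.2 fell (adjusted p = 0.0191 and 0.0187), and reads can be shared between this pair of near-identical neighbours. Of 8 further cyclins that passed the filter, CYCB3;1 fell and CYCA1;2 rose (adjusted p = 0.0218 and 0.00996), the last from 0.605 to 4.51 CPM in WT and from 1.06 to 3.32 CPM in cerk1. These lists were chosen with earlier results of these data known, and the counts are to be read beside the background of 16.1% of all genes that fell and 21.2% that rose.

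In the untreated transgenic lines no single member passed the test between CERK1 versions. The summed level of the members was highest in both CERK1_3A libraries, and by class this held only for the mitotic genes. In 6 comparisons between the 4 lines, edgeR's quasi-likelihood test and DESeq2 each called 0 of 35 members. The lines also differed in few genes as a whole: edgeR called between 1 and 6 of 21274 genes in a comparison, with 0.0188%, 0.0094%, 0.0047% or 0% of genes called in 1 direction. At an unadjusted p under 0.05 there was 1 member in CERK1_3A against CERK1_WT (3.07% of all genes), 1 in CERK1_3D against CERK1_WT (2.87%), 0 in CERK1_3E against CERK1_WT (3.37%), 4 in CERK1_3D against CERK1_3A (5.78%), 1 in CERK1_3E against CERK1_3A (2.45%) and 3 in CERK1_3E against CERK1_3D (4.03%). The comparisons share lines and are not independent. The transgene differed in level: CERK1 stood at 61.1 and 52.5 CPM in CERK1_WT, 80.2 and 73.3 in CERK1_3A, 115 and 121 in CERK1_3D, and 114 and 129 in CERK1_3E.

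The summed level of the 35 members was 648 and 644 CPM in CERK1_3A, 567 and 613 in CERK1_3D, 609 and 618 in CERK1_3E, and 612 and 614 in CERK1_WT. Both CERK1_3A libraries lay above the other 6. By class this held only for the mitotic genes, at 202 and 203 CPM against 165 to 195 CPM. For the replication genes CERK1_3A replicate 2, at 243 CPM, lay below CERK1_WT replicate 1 at 245 CPM. For the G1 genes CERK1_3A replicate 1, at 192 CPM, lay below CERK1_3D replicate 2 at 195 CPM. The median deviation of the members from their own means was 0.07 in both CERK1_3A libraries, and -0.12 and -0.04 in those of CERK1_3D, on the log2 scale of CPM + 1. The pooled SD of that median between libraries of a line was 0.033, and the CERK1_3D libraries lay farther apart than this. The gap between CERK1_3A and CERK1_3D, the widest between lines, was not tested. For single members, the median absolute difference between the libraries of a line was 0.11 to 0.16 on the log2 scale of CPM + 1. The highest levels per kilobase of stated length, as means over the 8 libraries, were those of CYCD3;2 (36.5 CPM), KNOLLE (28.6), CDKA;1 (28.4), PCNA1 (23.0) and PCNA2 (22.0), and the lowest were CYCA2;4 (0.144) and CYCA2;1 (0.473). CYCA2;4 (AT1G80370) stood at 0.142 and 0.433 CPM in CERK1_WT, 0.819 and 0.138 in CERK1_3A, 0.242 and 0.193 in CERK1_3D, and 0.159 and 0.191 in CERK1_3E. One library, CERK1_3A replicate 1, was apart at 31 counts, and its value alone sets the sign of the CERK1_3A comparisons for this gene. CYCA2;1 (AT5G25380) stood at 0.473 and 0.676 CPM in CERK1_WT, 0.475 and 0.635 in CERK1_3A, 0.778 and 1.16 in CERK1_3D, and 0.425 and 0.355 in CERK1_3E. Its CERK1_3D libraries were the highest and its CERK1_3E libraries the lowest, a log2 difference of -1.302 ± 0.46 SE for CERK1_3E against CERK1_3D that did not pass (edgeR adjusted p = 0.999).

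Among the better expressed mitotic genes, small differences between CERK1_3D and CERK1_3A pointed the same way. KNOLLE stood at 33.0 and 33.3 CPM in CERK1_WT, 38.9 and 37.3 in CERK1_3A, 29.2 and 32.8 in CERK1_3D, and 32.4 and 35.05 in CERK1_3E. Its CERK1_3D libraries lay below and its CERK1_3A libraries above all others but for overlap of CERK1_3D with CERK1_3E. The log2 difference between CERK1_3D and CERK1_3A was -0.30 ± 0.09 SE (edgeR adjusted p = 0.790).

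CYCB1;2 stood at 23.0 and 23.2 CPM in CERK1_WT, 26.8 and 25.3 in CERK1_3A, 18.3 and 23.1 in CERK1_3D, and 25.002 and 26.6 in CERK1_3E. CYCB2;4 (AT1G76310), another cyclin of mitotic entry, stood at 8.29 and 8.36 CPM in CERK1_WT, 10.5 and 10.0 in CERK1_3A, 8.10 and 7.87 in CERK1_3D, and 8.95 and 11.0 in CERK1_3E. For both genes the CERK1_3D libraries were below those of CERK1_3A, by -0.33 ± 0.12 SE and -0.36 ± 0.14 SE on the log2 scale, and neither passed. CYCB2;2 (AT4G35620) stood at 5.58 and 6.68 CPM in CERK1_WT, 6.18 and 7.43 in CERK1_3A, 4.70 and 5.09 in CERK1_3D, and 4.22 and 6.03 in CERK1_3E. CYCB1;1 departed from this pattern, at 5.53 and 6.19 CPM in CERK1_WT, 7.32 and 7.13 in CERK1_3A, 7.35 and 7.40 in CERK1_3D, and 6.32 and 6.82 in CERK1_3E. Its CERK1_WT libraries were the lowest. Of the pair that can share reads, CDKB1;1 stood at 7.66 and 7.76 CPM in CERK1_WT, 7.16 and 6.55 in CERK1_3A, 7.16 and 5.37 in CERK1_3D, and 7.92 and 7.01 in CERK1_3E. CDKB1;2 stood at 4.35 and 4.81 CPM in CERK1_WT, 4.94 and 4.53 in CERK1_3A, 4.99 and 3.798 in CERK1_3D, and 4.01 and 5.27 in CERK1_3E.

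Over the mitotic class, 15 of 17 log2 differences of CERK1_3D against CERK1_3A were negative, with a median of -0.26. Of the 35 members, 14 had both CERK1_3D libraries below both CERK1_3A libraries, where 16.7% of all genes did, and 3 had them above, where 15.4% did. The 14 include 9 mitotic genes. No single member of them passed, and the standard errors, at a median of 0.15 for the class, were of the same order as the differences. With each library of either line left out in turn, 13 to 14 of 17 were negative. The 15 further genes of mitosis and cytokinesis were all negative, at a median of -0.16. Other pairs of lines also had mitotic differences mostly of 1 sign. CERK1_3E against CERK1_3A had 15 of 17 negative (median -0.13). Against CERK1_WT, 14 of 17 were negative in CERK1_3D (median -0.14), 9 in CERK1_3E (median -0.03) and 4 in CERK1_3A (median 0.13). Of the 35 members, 12 had both CERK1_3D libraries below both CERK1_WT libraries, where 12.6% of all genes did. Genes are not independent replicates, so these sign counts, and that of the replication genes below, are not a test. Library CERK1_3D replicate 1 also held less green tissue RNA, with 21129 CPM summed over 5 genes against 33608 CPM in replicate 2 and 27280 to 35625 CPM in the other lines. The part of that library's makeup in the mitotic differences was not tested. Without that library the mitotic median of CERK1_3D against CERK1_3A was -0.21.

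Among the replication genes, differences between lines were also small and none passed. CDC6 stood at 4.68 and 5.03 CPM in CERK1_WT, 3.91 and 4.36 in CERK1_3A, 3.73 and 4.07 in CERK1_3D, and 4.92 and 4.37 in CERK1_3E. MCM5 (AT2G07690) stood at 33.1 and 33.7 CPM in CERK1_WT, 33.1 and 31.2 in CERK1_3A, 27.4 and 29.3 in CERK1_3D, and 34.9 and 31.2 in CERK1_3E. The CERK1_3D libraries of both genes were the lowest or near it, with log2 differences from CERK1_WT of -0.31 ± 0.18 SE and -0.24 ± 0.09 SE (edgeR adjusted p = 1.00 for each). MCM6 (AT5G44635) stood at 19.7 and 17.55 CPM in CERK1_WT, 21.0 and 21.5 in CERK1_3A, 17.8 and 21.9 in CERK1_3D, and 21.2 and 18.8 in CERK1_3E. CDT1A (AT2G31270) stood at 16.1 and 14.3 CPM in CERK1_WT, 16.2 and 11.7 in CERK1_3A, 13.3 and 15.0 in CERK1_3D, and 14.7 and 11.8 in CERK1_3E. For both genes the CERK1_3D libraries overlapped those of CERK1_WT.

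PCNA1 stood at 22.2 and 25.3 CPM in CERK1_WT, 24.5 and 28.4 in CERK1_3A, 23.8 and 22.2 in CERK1_3D, and 20.5 and 22.1 in CERK1_3E. Its CERK1_3E libraries lay below the CERK1_3A libraries, by -0.31 ± 0.11 SE on the log2 scale (edgeR adjusted p = 1.00). PCNA2 stood at 23.1 and 24.1 CPM in CERK1_WT, 24.7 and 26.6 in CERK1_3A, 23.9 and 26.3 in CERK1_3D, and 26.5 and 23.9 in CERK1_3E. Of the 10 replication genes, 9 were negative in CERK1_3D against CERK1_3A, at a median of -0.11, but 5 were without CERK1_3D replicate 1, at a median of -0.005.

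The G1 genes had median log2 differences of 0.08, 0.04 and 0.01 in CERK1_3A, CERK1_3D and CERK1_3E against CERK1_WT. CYCD3;2 stood at 50.7 and 48.0 CPM in CERK1_WT, 52.2 and 52.3 in CERK1_3A, 46.6 and 56.1 in CERK1_3D, and 51.6 and 55.8 in CERK1_3E. CYCD3;3 (AT3G50070) stood at 16.1 and 15.3 CPM in CERK1_WT, 16.1 and 17.3 in CERK1_3A, 17.496 and 15.2 in CERK1_3D, and 14.3 and 13.9 in CERK1_3E. Only the CERK1_3E libraries of CYCD3;3 lay below the rest, by -0.16 ± 0.11 SE from CERK1_WT. CYCD4;1 stood at 1.87 and 2.76 CPM in CERK1_WT, 1.69 and 2.43 in CERK1_3A, 1.45 and 2.31 in CERK1_3D, and 2.21 and 2.35 in CERK1_3E. CYCA3;1 stood at 3.95 and 4.84 CPM in CERK1_WT, 5.10 and 4.56 in CERK1_3A, 4.96 and 5.04 in CERK1_3D, and 3.91 and 5.27 in CERK1_3E. The libraries of the lines overlapped for both of these weakly expressed cyclins, except that both CERK1_3D libraries of CYCA3;1 lay above both of CERK1_WT. CYCD1;1, the member with the largest fall under flg22 in the fit over both genotypes, ranged from 23.1 to 26.4 CPM over the 8 libraries.

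**Figure D5:**
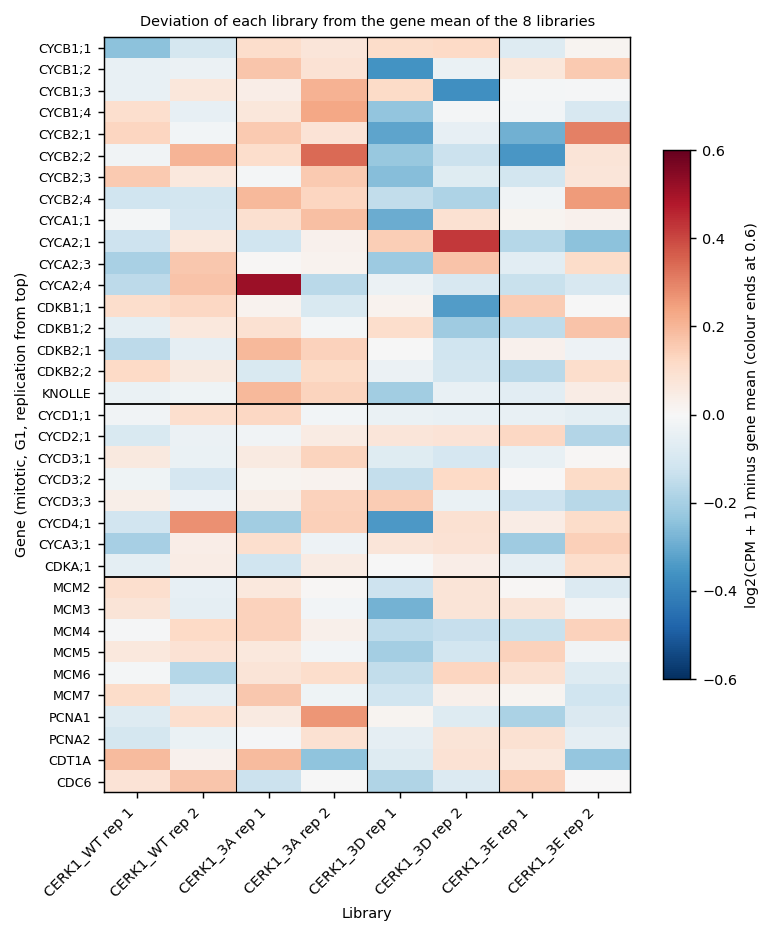
Deviation of each library from the gene's mean over the 8 libraries of the lines, as log2(CPM + 1), for the 35 members in rows and the libraries in columns. Red is above and blue below the mean, and the colour ends at 0.6. The mitotic rows are mostly red in the CERK1_3A columns, where 14 of 17 lie above their mean in each. In replicates 1 and 2, the numbers are 5 and 4 for CERK1_3D, 4 and 11 for CERK1_3E, and 5 and 9 for CERK1_WT. Over all 35 members, CERK1_3D replicate 1 has the fewest above their mean, 9. The darkest cell is CYCA2;4 in CERK1_3A replicate 1.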

How the data were processed

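Whole-seedling RNA was sequenced in 12 libraries. The deposited tables hold whole-number counts per gene from the authors, with no normalization, per the file headers and values, for reads placed on TAIR10 per the submitters' processing notes. Which aligner and counter were run, and with what strand option or filter, is not given in the sources used here. Reads of overlapping or near-identical genes may be split. Groups follow the sample titles.

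Counts were scaled with TMM in edgeR 4.0.16 (limma 3.58.1, R 4.3.3) within each table. In the flg22 experiment, genes with at least 1 CPM in at least 1 library were kept, ratios were formed on CPM + 1 and counted at 2-fold and 1.5-fold, and ratios of single genes are count ratios with a 95% exact binomial interval. A fit with genotype and treatment as terms was added after the values had been seen. In the lines, edgeR's quasi-likelihood test ran on all 8 libraries after filterByExpr, two-sided, with Benjamini-Hochberg adjustment over all genes tested and significance at 0.05. It left 4 residual degrees of freedom, and the BCV common to all genes was 0.170. DESeq2 1.42.0 was run beside it. Libraries of a line were not duplicates (chi-square per degree of freedom 38.9 to 55.8). Both fits were run on simulated data. The simulation for the flg22 experiment held the same spread for all genes and no genotype effect. It therefore did not test how that fit handles the real disagreement between the genotypes.

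Members named with all their values are the 2 of each class with the largest ratio or log2 change in a comparison and at least 30 counts, and the near-identical pairs. Further members, and genes of the other lists, were named with their values known. The members and lists were chosen with earlier results of these data known.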

Additional observations from a re-analysis of the deposited data

How the results depend on the processing

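In the flg22 experiment the number of members at least 2-fold apart moved with the threshold, the added constant and the scaling. With library totals in place of TMM it was 9 in WT and 8 in cerk1, and the WT median log2 ratio was -0.79. That scaling moved the median of all genes to -0.28 in WT and -0.17 in cerk1, so that members minus all genes stayed at -0.52 and -0.54. With CPM + 0.1 the numbers were 6 in WT, 5 in cerk1 and 1 for cerk1 flg22 against WT flg22. With CPM + 5 they were 0 in WT, 1 in cerk1 and 0 for cerk1 mock against WT mock. At 1.5-fold they were 17 in WT, 15 in cerk1, 2 for the mock and 3 for the flg22 libraries of the genotypes. In the fit over both genotypes DESeq2 called 10 members and the other settings 15 to 25. In the lines 0 members were called under every alternative run. Leaving out a library in turn gave median log2 changes of the members of -0.17 to -0.11 for CERK1_3D against CERK1_3A, -0.14 to -0.0257 for CERK1_3D against CERK1_WT, -0.0205 to 0.10 for CERK1_3E against CERK1_3D, -0.15 to -0.0595 for CERK1_3E against CERK1_3A and -0.0513 to 0.0151 for CERK1_3E against CERK1_WT. Weakly expressed members changed sign. CYCA2;4 ran from -1.02 to 1.74 (CERK1_3A against CERK1_WT), -1.90 to 0.64 (CERK1_3D against CERK1_3A) and -2.20 to 0.34 (CERK1_3E against CERK1_3A). CYCD4;1 ran from -0.45 to 0.14, -0.50 to 0.17 and -0.0943 to 0.43 in the same comparisons, from -0.67 to 0.0138 (CERK1_3D against CERK1_WT) and from -0.0205 to 0.65 (CERK1_3E against CERK1_3D). CYCA3;1 ran from -0.00422 to 0.29 (CERK1_3A against CERK1_WT). The causes were not tested.

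The replicate numbers were not taken to pair the libraries of the lines. The replicate differences correlated with r over 0.1 in 4 of 6 pairs of lines, at most 0.228, but with r of -0.001 and 0.005 for CERK1_3A with CERK1_3D and CERK1_3E, so some lines share a difference between numbers 1 and 2. A replicate block called 0 members in all 6 comparisons and gave a median of -0.14 for CERK1_3D against CERK1_3A, and it changed no call.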
